A study of Homo sapiens with 6 samples.

Results

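The genes described here were the 8 genes of the imprinted cluster on chromosome 11p15 that run from H19 to NAP1L4: H19, IGF2, KCNQ1, KCNQ1OT1, CDKN1C, SLC22A18, PHLDA2 and NAP1L4. They are 8 of the 29908 genes of the expression table. They were chosen by their position and imprinting and with their difference between the groups known, because CDKN1C was far higher and its neighbour PHLDA2 lower in the knockdown cells. Their own difference is therefore given as a description, and p-values are printed only for genes other than these 8. The fit across all genes includes the members, and its calls of them are counted but support nothing.

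The libraries came from Hep3B, an established human hepatocellular carcinoma cell line. In both groups the cells had been infected with lentivirus and kept under puromycin to obtain stable lines. Hep3B-KD cells carried shDAGLA, a short hairpin RNA against DAGLA, which encodes diacylglycerol lipase alpha, the enzyme that makes the endocannabinoid 2-arachidonoylglycerol; Hep3B-Con cells carried a negative control construct (shControl). Each group had 3 libraries, and the model rests on 1 cell line and 1 hairpin.

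In an imprinted cluster, the copy of a gene that came from the mother and the copy that came from the father are not used equally, and DNA methylation at control regions keeps the copies apart. In the H19 and IGF2 domain, both genes share enhancers, and CTCF bound to the unmethylated maternal control region directs these enhancers to H19, while IGF2 is read from the paternal copy. In the neighbouring domain, the long non-coding RNA KCNQ1OT1 is made from the paternal copy and silences the paternal copies of KCNQ1, CDKN1C, SLC22A18 and PHLDA2, with NAP1L4 at the edge of the domain. The cluster is known for foetal growth control and for Beckwith-Wiedemann syndrome. The expression values do not separate the parental copies, so nothing about allelic use or methylation was measured.

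Levels are given in FPKM, reads scaled to the exon length of the gene and to the total reads of the library. Reads could be recovered exactly from the FPKM values, and the libraries held 15861039 to 17572714 reads. DAGLA was 9.28 ± 0.228 FPKM in Hep3B-Con and 4.62 ± 0.164 in Hep3B-KD (SD, n = 3 libraries each), and fell by 0.99 on the log2 scale (limma, Benjamini-Hochberg adjusted p = 5.25e-06). All 8 hepatocyte markers tested were detected in every library, and their summed level was 2565 to 2612 FPKM in Hep3B-Con and 4088 to 4105 FPKM in Hep3B-KD, most of it ALB. Of these markers 7 were called higher in Hep3B-KD and HNF4A lower, beside 36.1% higher and 23.8% lower of all genes tested. SERPINA1 lost its call after centring, and the median log2 fold change of these markers was 0.74. Of the 12 markers of leukocytes, endothelium, fibroblasts and biliary cells, 10 were in the table, with a summed level of 47.4 to 52.5 FPKM in Hep3B-Con and 55.8 to 62.4 FPKM in Hep3B-KD, nearly all of it SOX9. Of the 4 of these that passed the filter, SOX9 was called higher, KRT7 and COL1A1 lower and LYZ in neither direction (75.0% called, beside 59.9% of all genes tested). PTPRC, CDH5, VWF, COL3A1 and DCN stayed under 0.05 FPKM in every library, and the endothelial marker PECAM1, also below the filter, was 0.193 to 0.205 FPKM in Hep3B-Con and 0.268 to 0.385 FPKM in Hep3B-KD. The labels do not say whether the libraries of a group came from separate cultures, so the p-values measure the spread between these libraries, which may be technical. In such bulk samples, fewer cells of a type and less RNA per cell cannot be told apart.

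Of the 8 genes, 6 passed the filter, a mean level over all libraries of no less than 0.5 FPKM, whereas KCNQ1 and KCNQ1OT1 did not. Log2 fold changes are Hep3B-KD minus Hep3B-Con on log2(FPKM + 0.1), which understates the change of low genes. The median over the 14221 genes tested was 0.11. All 6 genes that passed the filter had an adjusted p under 0.05, 5 of them higher and PHLDA2 lower, and in all 6 the groups did not overlap. Over all genes tested, 59.9% were called in either direction, 36.1% higher and 23.8% lower, and 66.9% had groups that did not overlap. IGF2 and CDKN1C were also past a fold of 2 with an unadjusted p under 0.05, as were 9.27% of all genes tested. Because the genes were selected on this contrast, nothing is read from these counts. Of all called genes, 60.2% were higher in Hep3B-KD; this share was 48.5% after each library was centred on its median log ratio.

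**Figure D1:**
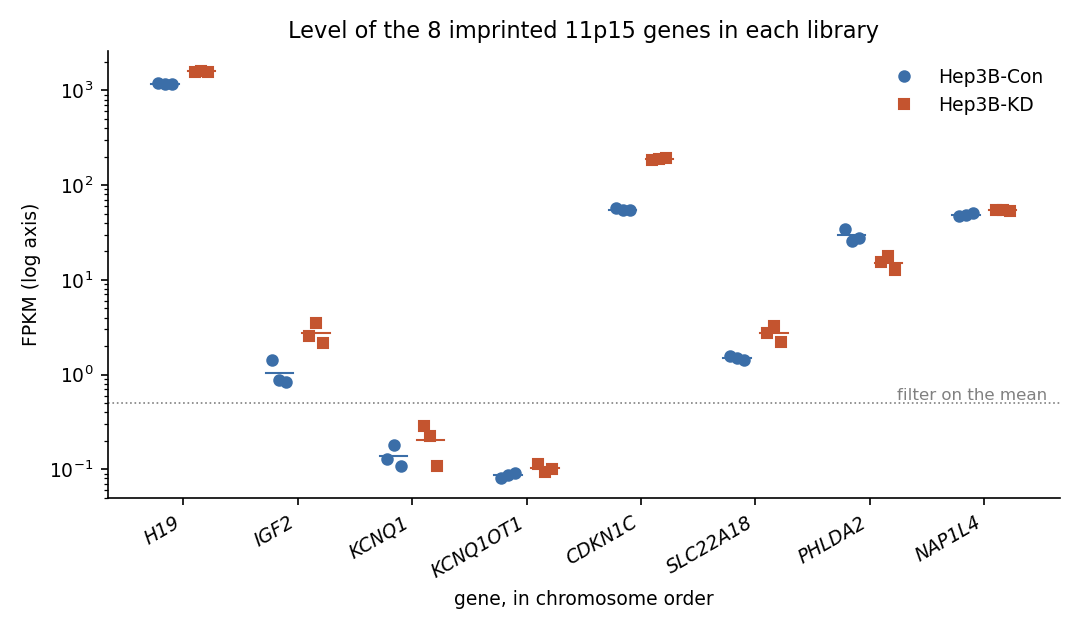
FPKM on a log axis of the 8 imprinted genes in each library, with Hep3B-Con as circles, Hep3B-KD as squares and group means as short lines; the dotted line is the filter on the mean. CDKN1C moved from 54.0 to 56.7 FPKM in Hep3B-Con to 182 to 195 FPKM in Hep3B-KD, PHLDA2 is the gene whose Hep3B-KD values lie below those of Hep3B-Con, and KCNQ1 and KCNQ1OT1 lie below the filter.

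H19, a long non-coding RNA of foetal liver that also carries the microRNA miR-675, was by far the most abundant gene of the cluster. Its levels were 1205, 1170 and 1168 FPKM in Hep3B-Con and 1582, 1598 and 1573 FPKM in Hep3B-KD. The 3 Hep3B-KD libraries lay within 25.3 FPKM of each other and all above Hep3B-Con. The means were 1181 ± 20.8 and 1584 ± 12.8 FPKM (SD, n = 3 each), and the log2 fold change was 0.42 (SE 0.02). These values rest on 56325 to 61347 reads per Hep3B-Con library and 72671 to 75599 reads per Hep3B-KD library. In level per length, H19 ranked 20 among all genes in Hep3B-Con and 15 in Hep3B-KD. The gene (ENSG00000130600) lies on the minus strand of GRCh38 at chr11:1995176-2001470. Its share of the reads of the 8 genes was 88.4% to 88.7% in Hep3B-Con and 84.9% to 85.3% in Hep3B-KD.

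The 2 mature forms of miR-675, which are cut from H19 itself, are shown because the most abundant transcript of the cluster is also their precursor. They are given 5′ to 3′ as in RefSeq, with the seed (bases 2 to 8), the part that pairs with targets, in capitals.
hsa-miR-675-5p: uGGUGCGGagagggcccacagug
hsa-miR-675-3p: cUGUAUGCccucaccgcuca
The seeds of the 2 forms differ. The hairpin that holds them covers 73 bases, or 2.52%, of the H19 exons, and the small RNAs themselves were not analysed here.

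The promoter window of H19 in RefSeq, 250 bases before to 50 after the start, at chr11:2001217-2001516 (GRCh38, minus strand), is shown with its CpG dinucleotides, the sites where imprinted methylation is laid down, in capitals.
H19 promoter: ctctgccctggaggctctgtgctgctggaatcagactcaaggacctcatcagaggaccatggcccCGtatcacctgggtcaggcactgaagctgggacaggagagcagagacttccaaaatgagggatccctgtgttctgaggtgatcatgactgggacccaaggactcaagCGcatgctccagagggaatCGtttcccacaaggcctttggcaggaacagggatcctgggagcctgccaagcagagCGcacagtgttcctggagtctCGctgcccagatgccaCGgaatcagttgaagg
It holds 6 CpG, against a median of 14 over 35116 windows of the same length, and 36.8% of windows held as few or fewer. The 4 RefSeq windows of NAP1L4 held 11 to 43 CpG. Neither the letters GGAATG, the core that TEAD factors bind, nor GGGCGG, the core that Sp1 binds, was found on either strand of the H19 window. GGAATG was found in 14.0% of all windows and in none of the 4 of NAP1L4, and GGGCGG in 45.0% of all windows and in 3 of the 4 of NAP1L4.

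IGF2, the foetal growth factor that shares its enhancers with H19, had low values in the expression table. Its levels were 1.42, 0.882 and 0.844 FPKM in Hep3B-Con and 2.53, 3.51 and 2.15 FPKM in Hep3B-KD. Hep3B-Con replicate 1 was the highest of its group, and still below all Hep3B-KD libraries. The means were 1.05 ± 0.322 and 2.73 ± 0.700 FPKM (SD, n = 3 each), and the log2 fold change was 1.31 (SE 0.24), from 98 to 174 reads per Hep3B-Con library and 249 to 393 per Hep3B-KD library. IGF2 (ENSG00000167244, chr11:2129112-2149603, minus strand) shares 333 exon bases with IGF2-AS on the opposite strand, and 5144 with a further GENCODE entry of IGF2 (ENSG00000284779) and 1460 with INS-IGF2. Neither of the latter entries was in the expression table used here. How the authors' counting treated reads of shared bases is not given in the sources used here. If such reads were left out, the values of IGF2 are too low. The level of IGF2 is therefore less certain than its read counts alone would give. H19 exceeded IGF2 by a ratio of FPKM values of 849 to 1385 in Hep3B-Con and 456 to 731 in Hep3B-KD, and these ranges did not overlap. The ratios are too high if reads of IGF2 were left out, so their size is uncertain too.

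KCNQ1OT1, the non-coding RNA that silences the paternal copies of its neighbours, was very low per length. Its levels were 0.0807, 0.0879 and 0.0918 FPKM in Hep3B-Con and 0.114, 0.0944 and 0.101 FPKM in Hep3B-KD. All Hep3B-KD values lay above the Hep3B-Con values, but the nearest of them by only 0.00266 FPKM. These levels come from 130, 140 and 140 reads in Hep3B-Con and 166, 139 and 154 reads in Hep3B-KD, spread over 91667 exon bases, so that read counts overlapped while values scaled to the library did not. In the fit with no filter on low values its log2 fold change was 0.12 (SE 0.21). This value understates any change, because the pseudocount of 0.1 is as large as the level itself; the ratio of the mean FPKM values was 1.19. Its place in the second domain is chr11:2608328-2699994, on the minus strand and wholly inside the gene body of KCNQ1 (ENSG00000269821).

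KCNQ1, the pore subunit of a voltage-gated potassium channel, was lower still in reads. Its levels were 0.128, 0.181 and 0.108 FPKM in Hep3B-Con and 0.284, 0.224 and 0.108 FPKM in Hep3B-KD, from 10, 14 and 8 reads and 20, 16 and 8 reads. Replicate 3 of Hep3B-KD lay among the Hep3B-Con libraries, so the groups overlapped. The log2 fold change with no filter was 0.32 (SE 0.33). KCNQ1 (ENSG00000053918, chr11:2444684-2849110, plus strand) shares 121 exon bases with KCNQ1OT1 on the other strand. The libraries were made with a TruSeq RNA kit and the sources used here do not say that strand was kept, so reads of such antisense pairs cannot be told apart. Its accessory subunits KCNE1, KCNE2 and KCNE5 were below the filter too, at a mean of at most 0.0995 FPKM in either group. KCNE3 and KCNE4 were not in the expression table used here.

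CDKN1C encodes p57, an inhibitor of cyclin-dependent kinases that restrains the cell cycle and is normally read from the maternal copy. It had the largest log2 fold change of the 6 genes. Its levels were 56.7, 54.0 and 54.4 FPKM in Hep3B-Con and 182, 187 and 195 FPKM in Hep3B-KD. The lowest Hep3B-KD library was 3.21 times the highest Hep3B-Con library. The means were 55.0 ± 1.46 and 188 ± 6.69 FPKM (SD, n = 3 each), with a ratio of 3.42 and a log2 fold change of 1.77 (SE 0.03), from 2243 to 2468 and 7153 to 8030 reads per library. In level per length CDKN1C moved from rank 734 to rank 105 of all genes. The coefficient of variation was 2.65% in Hep3B-Con and 3.55% in Hep3B-KD. CDKN1C (ENSG00000129757) lies at chr11:2883213-2885773 on the minus strand, and shares no exon base with another gene of the annotation. The study also measured CDKN1C by qRT-PCR, and p57 protein by western blots and staining of xenograft tumours.

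SLC22A18, a membrane transporter of the organic cation family, starts 13.9 kb from CDKN1C. Its levels were 1.56, 1.5 and 1.44 FPKM in Hep3B-Con and 2.74, 3.28 and 2.21 FPKM in Hep3B-KD. The Hep3B-Con libraries were close together, and the Hep3B-KD libraries were more spread and all above them. The means were 1.5 ± 0.0639 and 2.74 ± 0.534 FPKM (SD, n = 3 each), and the log2 fold change was 0.81 (SE 0.14), from 127 to 146 and 195 to 280 reads per library. SLC22A18 (ENSG00000110628, chr11:2899721-2925246, plus strand) shares 227 exon bases with SLC22A18AS on the other strand, which was below the filter at 0.307 ± 0.124 and 0.371 ± 0.103 FPKM.

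PHLDA2, a small protein with a pleckstrin homology domain that restrains placental growth, lies 3.03 kb beyond SLC22A18 and was the 1 gene of the 6 that was lower in Hep3B-KD. Its levels were 34.8, 25.8 and 27.9 FPKM in Hep3B-Con and 15.3, 17.8 and 12.6 FPKM in Hep3B-KD. The highest Hep3B-KD value was well under the lowest Hep3B-Con value. The means were 29.5 ± 4.70 and 15.2 ± 2.59 FPKM (SD, n = 3 each), and the log2 fold change was -0.95 (SE 0.15), from 429 to 584 and 200 to 273 reads per library. The spread between libraries was wide for a gene of this level. The coefficient of variation was 15.9% in Hep3B-Con and 17.0% in Hep3B-KD, against 4.54% and 6.53% from counting alone. Genes within 1.5 times its level had a median coefficient of variation of 2.68% and 3.21%. PHLDA2 (ENSG00000181649) lies at chr11:2928273-2929455 on the minus strand. The study also picked PHLDA2, from an overlap in which the changed genes of these libraries were 1 of the lists. Its changed genes had a fold of at least 2 with P under 0.05, whereas the fold of PHLDA2 in the fit used here was 1.935. The study then followed PHLDA2 with qRT-PCR, western blots, tissue staining, patient survival and ChIP-qPCR of TEAD2. It also knocked PHLDA2 down and overexpressed it, alone and in cells with altered DAGLA.

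NAP1L4, a histone chaperone of the nucleosome assembly protein family, marks the edge of the cluster 15 kb beyond PHLDA2 (ENSG00000205531, chr11:2944431-2992377, minus strand). Its levels were 47.6, 48.0 and 50.2 FPKM in Hep3B-Con and 54.4, 54.7 and 53.2 FPKM in Hep3B-KD. The groups did not overlap, but the gap between them was only 3.09 FPKM. The means were 48.6 ± 1.35 and 54.1 ± 0.780 FPKM (SD, n = 3 each), and the log2 fold change was 0.15 (SE 0.03). This value lies near the median of all genes, and was 0.05 after centring on the median log ratio.

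Within the cluster, ratios between genes were compared within each library. The ratio of CDKN1C to PHLDA2 in FPKM was 1.63, 2.09 and 1.95 in Hep3B-Con and 11.9, 10.5 and 15.5 in Hep3B-KD. The lowest Hep3B-KD ratio was 5.04 times the highest Hep3B-Con ratio, between genes whose nearest ends are 42.5 kb apart. The cluster was chosen with the opposite change of this pair known, so the direction of this shift was fixed in advance. The ratio of H19 to CDKN1C was 21.3, 21.7 and 21.5 in Hep3B-Con and 8.69, 8.53 and 8.05 in Hep3B-KD. Together the 8 genes took 3821 to 3939 CPM (reads scaled to the library total) in Hep3B-Con and 5365 to 5447 CPM in Hep3B-KD. In order of their level per length, H19 was highest in both groups. CDKN1C and NAP1L4 followed, at 55.0 and 48.6 FPKM in Hep3B-Con, where the lowest CDKN1C library (54.0) was above the highest NAP1L4 library (50.2). PHLDA2 came next, then SLC22A18 and IGF2. The latter pair had means of 2.74 and 2.73 FPKM in Hep3B-KD, which did not differ beyond their spread, and KCNQ1 and KCNQ1OT1 were last.

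**Figure D2:**
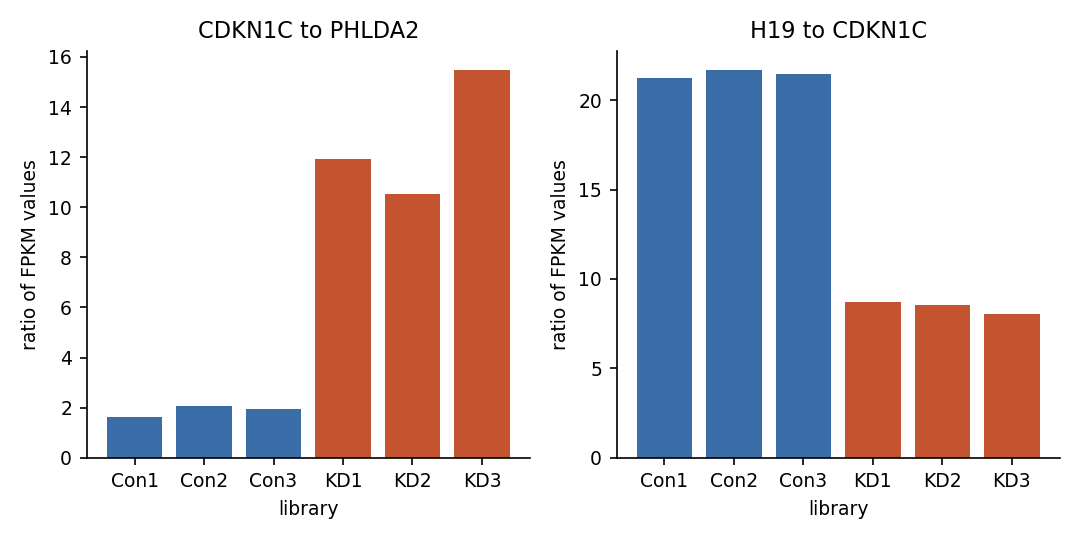
Ratio of FPKM values in each library for CDKN1C to PHLDA2 (left) and H19 to CDKN1C (right), with Hep3B-Con libraries in blue and Hep3B-KD libraries in orange; axes start at 0. The first ratio is 1.63 to 2.09 in Hep3B-Con and 10.5 to 15.5 in Hep3B-KD, and the second falls from at least 21.3 to at most 8.69. The cluster was chosen with the changes of CDKN1C and PHLDA2 known, so both ratios are a description only.

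Genes that lie between H19 and NAP1L4 but are no members of the cluster list show how the rest of the interval of 997 kb behaved. Of 15 such genes in the table, 7 passed the filter, of which 2 were called higher, 2 lower and 3 in neither direction. This is 57.1% called, beside 59.9% of all genes tested, and the median log2 fold change was 0.04. CD81, a tetraspanin of the cell surface, was 15.6, 16.1 and 15.3 FPKM in Hep3B-Con and 4.81, 4.32 and 5.02 FPKM in Hep3B-KD. It fell by 1.71 on the log2 scale (SE 0.06, limma adjusted p = 2.12e-06). TSSC4, next to CD81, fell from 22.9 ± 0.356 to 20.2 ± 0.779 FPKM (log2 fold change -0.18, limma adjusted p = 0.004).

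Of the entries antisense to members, IGF2-AS and AC131971.1 were called higher. SLC22A18AS and KCNQ1-AS1, also antisense to members, were below the filter, and their groups overlapped. As the sources used here do not say that strand was kept, antisense reads cannot be told from those of the members. IGF2-AS rose from 1.85 ± 0.240 to 3.34 ± 0.144 FPKM (SD, n = 3 each; log2 fold change 0.83, limma adjusted p = 0.000499); it overlaps IGF2 as given above. AC131971.1, which shares 84 exon bases with NAP1L4 on the other strand, had 9 to 11 reads in Hep3B-Con and 14 to 26 in Hep3B-KD (log2 fold change 0.91, limma adjusted p = 0.0277), and lost its call in 7 of 16 alternative settings. MIR483, the entry of a microRNA gene inside IGF2, had 5, 2 and 2 reads in Hep3B-Con and 3, 15 and 10 in Hep3B-KD, and its groups overlapped. RF00019 and SNORA54, small RNA entries, had at most 7 reads in a library and were not called.

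**Figure D3:**
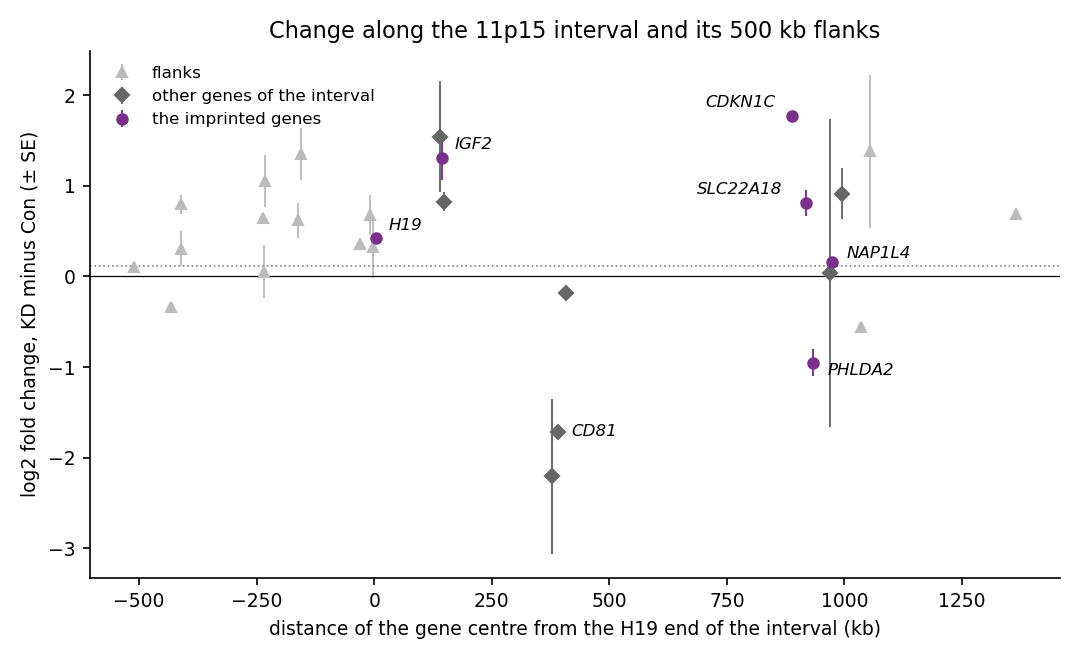
Log2 fold change (Hep3B-KD minus Hep3B-Con, bars are SE) of every gene that passed the filter against the distance of its centre from the H19 end of the interval in kb, with the 6 imprinted genes as circles, the other 7 genes of the interval as diamonds and 15 genes of the flanks as triangles; the dotted line is the median of all genes. CDKN1C at 1.77 and PHLDA2 at -0.95 lie close to each other in distance, and CD81 at -1.71 lies between the domains.

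CD81 was singled out after its values were seen, and was compared with the members for matches to the hairpin. The target site of shDAGLA lies in DAGLA at chr11:61740504-61740522 (GRCh38, plus strand), in coding sequence in 1 of its 2 transcripts and in the annotated 3′ UTR of the other. The guide strand is its reverse complement, and its seed, bases 2 to 8, is in capitals, as is the match to that seed in the target and in the sites of CD81.
shDAGLA target: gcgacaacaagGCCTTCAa
shDAGLA guide: tTGAAGGCcttgttgtcgc
CD81, chr11:2397301-2397307: cactctctGCCTTCAtgcacctg
CD81, chr11:2397332-2397338: aacacgtcGCCTTCAactgtaat
H19, chr11:1995271-1995277: acggagcaGCCTTCAagcattcc
The coordinates are those of the 7 bases in capitals. H19 is not the only member with a match, since the long exon of KCNQ1OT1 holds 6, which are not printed. In the flanks the 3′ UTR of SYT8, a gene called higher, also holds 1. Outside an annotated 3′ UTR, transcripts of CARS, called lower, and of ZNF195 and MRPL23-AS1, called higher, hold 1 each. Some genes of the interval and flanks below the filter hold matches too. Both CD81 sites are in the 3′ UTR of a coding transcript. Of the members, IGF2, CDKN1C, SLC22A18, PHLDA2 and NAP1L4 had a 3′ UTR that could be searched, and none held GCCTTCA, which 16.5% of 11229 tested genes held. In the transcripts of PHLDA2, the longest run of bases shared with the 19-base target was 6, in CD81 it was 8, in H19 it was 10 and in KCNQ1OT1 it was 11. Such matches are a description of the letters, and whether the hairpin acted on any of these transcripts was not tested.

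Genes within 500 kb outside the cluster were described in the same way. Of 33 in the table, 15 passed the filter, 8 being called higher and 2 lower (66.7%, beside 59.9% of all genes); the list's median log2 fold change was 0.62. On the H19 side, CTSD, the lysosomal protease cathepsin D, rose from 29.5 ± 0.857 to 46.2 ± 1.81 FPKM (log2 fold change 0.65, limma adjusted p = 1.41e-05), and MRPL23, a mitochondrial ribosomal protein next to H19, from 21.1 ± 1.82 to 27.0 ± 1.4 FPKM (0.36, adjusted p = 0.00416). DUSP8, a phosphatase of MAP kinases, fell from 13.7 ± 0.586 to 10.8 ± 0.847 FPKM (-0.34, adjusted p = 0.00327). TNNI2, a troponin of fast skeletal muscle, was low and rose from 0.703 ± 0.258 to 1.93 ± 0.528 FPKM (1.35, adjusted p = 0.00574). KRTAP5-1, AC068580.1, SYT8 and MRPL23-AS1 were also called higher, of which SYT8 and MRPL23-AS1 lost their call in 8 of 16 alternative settings each and AC068580.1 in 3. On the NAP1L4 side, CARS, the cysteinyl-tRNA synthetase next to the cluster, fell from 13.0 ± 0.379 to 8.76 ± 0.252 FPKM (-0.56, adjusted p = 3.17e-05), and ZNF195 rose from 5.01 ± 0.272 to 8.14 ± 0.396 FPKM (0.69, adjusted p = 7.75e-05).

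Imprinted genes of other chromosome regions were described beside the members. Of a list of 30, 27 were in the table and 17 passed the filter, of which 11 were called higher, 2 lower and 4 in neither direction. This is 76.5% called, beside 59.9% of all genes tested, with a median log2 fold change of 0.56 beside 0.62 for the 6 members. PEG10, a retrotransposon-derived gene of placenta and liver tumours, was 76.3, 77.0 and 75.8 FPKM in Hep3B-Con and 124, 125 and 122 FPKM in Hep3B-KD, and rose by 0.69 on the log2 scale (limma adjusted p = 5.74e-07). UBE3A, a ubiquitin ligase, rose from 6.06 ± 0.275 to 10.5 ± 0.727 FPKM (0.78, adjusted p = 6.08e-05), and GRB10, an adaptor that restrains insulin and IGF receptor signalling, from 9.27 ± 0.391 to 14.4 ± 0.560 FPKM (0.63, adjusted p = 4.13e-05). PLAGL1, SGCE, SNHG14, ZNF597, ZNF331, PEG3, SNRPN and GNAS were also higher, with GNAS at 0.07 and turning to -0.03 after centring, and SNRPN losing its call in 8 of 16 alternative settings. DLK1, a foetal liver antigen read from the paternal copy, fell from 4.04 ± 0.161 to 3.0 ± 0.287 FPKM (-0.42, adjusted p = 0.00391). INPP5F fell by 0.14 on the log2 scale (adjusted p = 0.0493) and lost its call in 10 of 16 alternative settings. The log2 fold changes of this list ran from -0.42 to 0.78, and those of the members from -0.95 to 1.77. PHLDA2 and CDKN1C, the ends of the member range, were the reason for choosing the cluster. Nothing is therefore read from the width of that range or from the member median.

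The factors that set or keep imprints were then described. Of 20, 18 were in the table and 17 passed the filter, 10 being called higher, 4 lower and 3 in neither direction (82.4%, beside 59.9% of all genes); their median log2 fold change was 0.17. The methylcytosine oxidases TET2 and TET1 rose from 1.42 ± 0.0804 to 3.07 ± 0.191 FPKM (1.06, limma adjusted p = 5.56e-05) and from 1.04 ± 0.131 to 1.97 ± 0.198 FPKM (0.86, adjusted p = 0.00122). TET3, the most abundant of the family, fell from 20.8 ± 0.552 to 19.5 ± 0.364 FPKM (-0.09, adjusted p = 0.0349), a call lost in 9 of 16 alternative settings. DNMT1, which copies methylation after replication, was 55.1 ± 0.487 and 50.7 ± 0.823 FPKM and was called lower by 0.12 on the log2 scale (adjusted p = 0.00225), a call lost under quantile normalization. DNMT3A rose from 9.58 ± 0.302 to 12.3 ± 0.290 FPKM (0.35, adjusted p = 0.000236) and DNMT3B fell from 15.2 ± 0.333 to 13.9 ± 0.183 FPKM (-0.13, adjusted p = 0.0101). The Polycomb subunits EZH2 and SUZ12 rose by 0.29 and 0.48, the histone H3 lysine 9 methyltransferases EHMT1 and EHMT2 by 0.44 and 0.35, and the helicase HELLS by 0.67 on the log2 scale. SETDB1 and UHRF1 were called higher at 0.17 and 0.10 and lost their calls after centring, where UHRF1 turned to -0.0025. TRIM28, the corepressor of imprint-binding zinc finger proteins, was called lower at -0.14 and was 0.02 under quantile normalization. CTCF, the factor of the H19 control region, was 11.4 ± 0.347 and 10.8 ± 0.167 FPKM and was not called (-0.07, adjusted p = 0.118), but it was called lower after centring (-0.18, adjusted p = 0.00453) and under quantile normalization (-0.12, adjusted p = 0.0273).

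Receptors and RNA binding proteins of IGF2 were all detected. Of 7, 4 were called higher, 1 lower and 2 in neither direction (71.4%, beside 59.9% of all genes), with a median log2 fold change of 0.20. IGF1R, the receptor that carries most IGF2 signalling, fell from 10.6 ± 0.231 to 7.67 ± 0.212 FPKM (-0.46, limma adjusted p = 6.4e-05). INSR was called higher at 0.20, a call lost after centring, and the clearance receptor IGF2R was 75.8 ± 0.849 and 73.8 ± 0.759 FPKM and was not called. The direction of IGF2R depended on the scaling, since it was called lower after centring (-0.14, limma adjusted p = 0.000556) and with voom (-0.04, adjusted p = 0.0152), and higher under quantile normalization (0.08, adjusted p = 0.0148). IGF2BP1, IGF2BP2 and IGF2BP3, which bind IGF2 and H19 RNA, rose by 0.44, 0.23 and 0.38 on the log2 scale.

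Partners of p57 in the cell cycle were described next to CDKN1C. Of 13, 12 passed the filter, and 5 were called higher and 7 lower (beside 36.1% and 23.8% of all genes); their median log2 fold change was -0.19. SKP2, the F-box protein that marks p57 and p27 for breakdown, fell from 62.0 ± 1.59 to 33.4 ± 0.526 FPKM (-0.89, limma adjusted p = 1.07e-06). CDKN1A, which encodes the related inhibitor p21, fell from 11.6 ± 0.700 to 7.45 ± 0.545 FPKM (-0.63, adjusted p = 0.000236). CDKN1B, which encodes p27, was called higher at 0.21, a call lost after centring. Among the cyclins, CCNE1 rose from 17.1 ± 0.768 to 30.2 ± 0.374 FPKM (0.82, adjusted p = 5.51e-06) and CCNE2 by 0.67, whereas CCNA2 fell from 61.0 ± 0.836 to 41.8 ± 0.410 FPKM (-0.54, adjusted p = 2.66e-06) and CCND1 by 0.40 on the log2 scale. CDK6 rose by 0.63, CDK4 fell by 0.27 and PCNA rose by 0.18 on the log2 scale. CCND3 and CDK2 were called lower, CDK2 losing its call in 6 of 16 alternative settings.

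Relatives of PHLDA2 and NAP1L4 elsewhere in the genome gave other values than the members. PHLDA1 rose from 14.3 ± 0.179 to 17.0 ± 0.196 FPKM (0.24, limma adjusted p = 0.00027), and PHLDA3 was near 0 in all libraries. NAP1L1 was 25.4 ± 0.443 and 26.1 ± 0.231 FPKM and was not called, although it was called higher under quantile normalization (0.11, adjusted p = 0.0118). NAP1L5, itself imprinted, was 2.19 ± 0.494 and 2.88 ± 0.270 FPKM and was not called, but was called higher with voom (0.41, adjusted p = 0.0493). YAP1 and the TEAD factors, the coactivator and the DNA-binding factors at the end of the Hippo pathway, were called lower in 4 of 6 cases and higher in 2 (beside 23.8% and 36.1% of all genes), with a list median of -0.28. YAP1 fell from 16.2 ± 0.414 to 11.1 ± 0.227 FPKM (-0.54, adjusted p = 1.94e-05), WWTR1 by 0.35, TEAD4 by 0.47 and TEAD3 by 0.21 on the log2 scale. TEAD1 rose by 0.40, and TEAD2 was called higher at 0.12 (22.8 ± 0.389 and 24.8 ± 0.590 FPKM, adjusted p = 0.0107), a call lost after centring.

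H19 and IGF2 belong to the genes of foetal liver that liver tumours use again. Of 7 other such genes, 5 were called higher and DLK1 lower (beside 36.1% and 23.8% of all genes), and the median log2 fold change was 0.44. GPC3, a cell surface proteoglycan, rose from 158 ± 0.718 to 353 ± 3.21 FPKM (1.16, limma adjusted p = 5.05e-08). The transcription factor SALL4 rose from 2.25 ± 0.150 to 4.85 ± 0.195 FPKM (1.07, adjusted p = 2.18e-05), and AFP, the foetal serum protein, from 51.9 ± 0.716 to 77.0 ± 0.697 FPKM (0.57, adjusted p = 1.87e-06). The summed level of hepatocyte markers, given above, was higher in Hep3B-KD too. AFP is itself 1 of those markers, and most of their sum is ALB, at a mean of 2042 FPKM in Hep3B-Con and 3315 FPKM in Hep3B-KD. The part of such markers in the values of H19 and IGF2 was not tested.

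The genes whose log2 levels followed each member most closely over the 6 libraries were found by Pearson's r among the 14221 genes tested. With groups of 3, such an r mostly measures the separation of the groups, and all genes of a library share its depth. Depth also went with group, at 16644962 to 17572714 reads in Hep3B-Con and 15861039 to 16593115 in Hep3B-KD. For H19 the closest genes were PHLDB2 and SPATA20 (r = 0.9998 and 0.9996), and for CDKN1C SPHK2 and DSC2 (0.9998 and 0.9997). With H19 and CDKN1C, 867 and 1017 genes had an r above 0.99. For PHLDA2, with its wider spread, they were ZNF628 and DDX27 (0.9983 and 0.9980), and 8 genes had an r above 0.99. IGF2 was followed by PRPSAP1 and SLBP (0.9965 and 0.9951), SLC22A18 by TMEM198 and DTWD2 (0.9987 and 0.9969), and NAP1L4 by ZNF790-AS1 and COX7C (0.9990 and 0.9989).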

How the data were processed

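The authors deposited FPKM values of 29908 Ensembl genes in 6 libraries, 3 of Hep3B-Con and 3 of Hep3B-KD; groups and replicate numbers were taken from the sample labels. The submitters' processing notes name TopHat2 2.0.12, Bowtie2 2.0.6 and GRCh37. All 29908 identifiers and their exon lengths were found in GENCODE release 29 (GRCh38), which also gave the coordinates printed. With these lengths 100% of the FPKM values were within 0.01 of whole reads, giving totals of 15861039 to 17572714 reads per library. Limits of this kind cover counting error only.

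Genes at 0.5 FPKM or more on average were tested with limma 3.58.1 (R 4.3.3; lmFit, eBayes with trend) on log2(FPKM + 0.1), over all 6 libraries and without covariates. Adjusted p-values come from limma by the Benjamini-Hochberg method over 14221 genes. The fit was also run on simulated data with a small set of changed genes. Since 59.9% of all genes tested were called here, that run does not test calls in such a setting. As alternatives, the filter was dropped or set to 1 FPKM, the pseudocount was set to 1 or 0.01, the libraries were scaled to equal sums, quantile normalized or centred on the median log ratio, eBayes was run without trend, and voom was run on recovered reads; others used the replicate number as a block, or left out each library in turn, which makes 16. Members and gene lists were chosen with earlier results of these data known. The genes named are the members, DAGLA, genes of the interval and its flanks of 500 kb that passed the filter, and genes of the lists. SLC22A18AS and KCNQ1-AS1 of the interval, below the filter, are named too, as are for each member the 2 genes with the highest r. Sequences came from RefSeq, GENCODE and the study's list of hairpins. RefSeq promoter windows were matched for H19 and NAP1L4. Python 3.11.15, numpy 2.4.6, pandas 2.3.3 and matplotlib 3.10.9 were used.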

Additional observations from a re-analysis of the deposited data

How the results depend on the processing

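Under the 16 alternatives, the log2 fold changes of H19, IGF2, CDKN1C, SLC22A18 and PHLDA2 kept their direction, at 0.32 to 0.47, 0.86 to 1.53, 1.67 to 1.91, 0.57 to 0.95 and -1.07 to -0.83. NAP1L4 was 0.14 to 0.27 in 15 alternatives and 0.051 after centring on the median log ratio, where its call was lost; centring moved the median of all genes from 0.11 to 0.0059 and quantile normalization to 0.015, with 48.5% and 52.3% of calls higher in place of 60.2%. Genes past a fold of 2 with an unadjusted p under 0.05 numbered 1318, with no filter 2134 and with a pseudocount of 1 only 508. Of the other genes of the interval 3 to 5 were called, of the flanks 8 to 10, of the other imprinted genes 11 to 14 and of the imprint factors 12 to 14. Depth limits KCNQ1, at 8 to 20 reads per library; KCNQ1OT1, at 130 to 166 reads, is limited by the filter and the pseudocount, which act on its level per length.

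Same-numbered libraries showed no shared deviation from their group means, with correlations of -0.013, -0.066 and -0.0011. Whether they were prepared as pairs cannot be read from this, and the labels do not say. With the replicate number as a block, 7919 genes were called in place of 8521. In this balanced design a block cannot move a log2 fold change, so it tests only the calls.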
